A study of Mus musculus with 12 samples.

Results

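Adhesion receptors and integrin chains were examined in macrophages sorted from mouse aorta and fat. The 10 genes were chosen by name as adhesion genes of leukocytes, with earlier results of these data known. They were the ligands Vcam1 and Icam1, the alpha chains Itgam, Itgax, Itgal, Itga4, Itga6, Itga9 and Itgav, and the beta chain Itgb7. They were matched by Ensembl identifier among the 46517 genes of the count table, and all 10 were among the 14216 genes that passed the filter on low counts and entered the test. The libraries form 4 groups of 3: aortic LYVE1+ cells, aortic LYVE1- cells, fat LYVE1+ cells and fat LYVE1- cells. All came from adult C57/BL6 mice with no genetic change or treatment named in the labels, and an exact age and a sex are not given in the sources used here. For the aorta 30 mice were used, and for fat, taken from epididymal and subcutaneous depots together, 20 mice. Every group passed the same gate for live CD45+ CD64+ MerTK+ CD11b+ F4/80+ cells and was then split by surface LYVE-1, a hyaluronan receptor carried by lymphatic endothelium and by some tissue macrophages. Libraries were made from 2 ng of RNA with Smart-seq2, a full-length protocol that does not keep the strand. The labels do not say that the 3 libraries of a group are separate pools of animals, so each p-value measures only the spread between these libraries, which may be technical. CD11b is the protein of Itgam, so that gene was part of the gate in every group.

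Integrins are pairs of an alpha and a beta chain that span the membrane and bind other cells or matrix. Itgal, Itgam and Itgax pair with Itgb2 to form the leukocyte integrins LFA-1, Mac-1 and the CD11c integrin, whose best known ligand on other cells is ICAM-1, the protein of Icam1. Itga4 pairs with Itgb1 or Itgb7 and Itga9 pairs with Itgb1, and VCAM-1, the protein of Vcam1, is a ligand of these. Itga6 forms laminin receptors with Itgb1 or Itgb4, and Itgav pairs with Itgb1, Itgb3, Itgb5, Itgb6 or Itgb8 in receptors for matrix proteins such as vitronectin and for latent TGF-beta. VCAM-1 and ICAM-1 are best known on activated endothelium, where they hold leukocytes, and both are also made by macrophages.

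The libraries held 5049936 to 29792301 counts on genes. Levels below are CPM, counts set relative to the library total, scaled by TMM, a factor that evens out composition between libraries, and lengths are kilobases of exon in GENCODE M21 on the build GRCm38. Lyve1 itself was 2.04 ± 0.33 higher on the log2 scale (SE) in LYVE1+ cells of fat (adjusted p = 0.0038, edgeR's quasi-likelihood test with Benjamini-Hochberg adjustment, as for each adjusted p below). In the aorta its difference was 1.31 ± 0.32 (adjusted p = 0.11), with no overlap between the libraries of both sorts. The fat libraries numbered 1 stood apart in both sorts: mitochondrial genes took 8.85% of counts in the LYVE1+ library and 12.1% in the LYVE1- library, against 1.79% to 3.20% in the other 10. In these libraries, 7 erythroid markers summed to 25200 and 5220 CPM, against at most 1410 CPM elsewhere, and 11 markers of T and NK cells to 297 and 154 CPM, against at most 52.7 CPM. The 8 macrophage markers summed to 18500 and 12300 CPM, against 28100 to 28200 and 21800 to 22900 CPM in libraries 2 and 3 of each sort. Monocyte sums were 936 and 3190 CPM, against 184 to 194 and 1510 to 1540 CPM. B and plasma cell sums were higher in LYVE1+ library 1 (1300 against 899 to 967 CPM) and lower in LYVE1- library 1 (573 against 682 to 683 CPM). Library 1 was the highest of its group in both fat sorts for 7 of the 10 adhesion genes (Icam1, Itgax, Itgal, Itga4, Itga6, Itgav and Itgb7), against 25.4% of all tested genes. The part of these cells and of RNA quality in the levels was not tested, and results that rest on these libraries are given with and without them.

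Vcam1 (chr3:116109949-116129688, minus strand) was the adhesion gene that separated the sorts most clearly: it was lower in LYVE1+ than in LYVE1- cells in both tissues. Its levels were 65.0, 67.7 and 70.9 CPM in libraries 1, 2 and 3 of aortic LYVE1+ cells, against 230.5, 235 and 178 CPM in aortic LYVE1- cells. In fat, the LYVE1+ libraries had 62.8, 37.6 and 33.0 CPM, against 313, 436 and 399.5 CPM in LYVE1- libraries. The highest LYVE1+ library thus lay below the lowest LYVE1- library in each tissue. In the aorta the level was 3.16-fold lower in LYVE1+ cells (95% interval 2.26 to 4.41, log2 fold change -1.66, SE 0.22, adjusted p = 0.0057). In fat it was 8.68-fold lower (95% interval 6.09 to 12.4; log2 fold change -3.12, SE 0.24, adjusted p = 9.6e-05). Without both fat libraries numbered 1 the log2 fold change in fat was -3.56 (adjusted p = 2e-07). Since these are bulk samples, fewer cells that make a transcript and less of it per cell cannot be told apart.

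The library titles carry a prefix, RMM or RHH, whose meaning the labels do not give. In aortic LYVE1+ cells libraries 1 and 2 are RMM and library 3 is RHH, all aortic LYVE1- libraries are RHH, and all fat libraries are RMM. Among the RHH libraries of the aorta, Vcam1 had 70.9 CPM in the lone LYVE1+ library, against 178 to 235 CPM in the 3 LYVE1- libraries. With the prefix in the model its log2 fold change in the aorta was -1.60 and the call was lost (adjusted p = 0.31). In fat, where the prefix does not vary, the call held (adjusted p = 0.00021).

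Several marker lists of other cell types ran in the direction of Vcam1, among them the monocyte list. Its 7 members summed to 42.2 to 118 CPM in aortic LYVE1+ libraries, against 360 to 1540 CPM in aortic LYVE1- libraries. In fat the sums were 184 to 936 CPM in LYVE1+ libraries, against 1510 to 3190 CPM in LYVE1- libraries. Fn1, also in the list of matrix ligands, had the highest mean of the monocyte list in each group. Without Fn1 the aortic sums were 21.0 to 24.8 CPM in LYVE1+ and 157 to 312 CPM in LYVE1- libraries. The fat sums without it were 76.9 to 280 and 655 to 813 CPM. Of the 7, all of which had counts in each group, Ccr2, the chemokine receptor of monocytes, was called lower in LYVE1+ cells in both tissues, and 6 in the aorta and 5 in fat had a negative log2 fold change. The 8 fibroblast markers, with sums of 861 to 2470 CPM in aortic LYVE1+, 1300 to 2310 CPM in aortic LYVE1-, 441 to 672 CPM in fat LYVE1+ and 547 to 1030 CPM in fat LYVE1- libraries, were all negative in both tissues. Their medians were -0.32 in the aorta and -0.36 in fat, and none was called. In the aorta the 6 tested mast cell markers were all negative (median -4.04, none called). The 8 listed mast cell markers summed to 1.85 to 12.3 CPM in aortic LYVE1+ and 47.9 to 78.7 CPM in aortic LYVE1- libraries, and 4 of 8 had no count in aortic LYVE1+ cells. Of 5 tested eosinophil markers 4 were negative in the aorta, and Prg2 was called lower. All 6 listed eosinophil markers, tested or not, summed to 1.78 to 3.61 CPM in aortic LYVE1+ and 10.4 to 29.0 CPM in aortic LYVE1- libraries. Of 7 B and plasma cell markers 6 were negative in the aorta (median -1.63, none called), but their sums, mostly Ighm, overlapped at 724 to 986 CPM in LYVE1+ and 681 to 1010 CPM in LYVE1- libraries. In fat 1 marker each of the mast, eosinophil and B and plasma cell lists was negative. The part of these cells in the levels of Vcam1 and of the other adhesion genes was not tested.

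The 10 endothelial markers summed to 10.5 to 56.4 CPM in aortic LYVE1+, 24.8 to 43.2 CPM in aortic LYVE1-, 10.1 to 61.0 CPM in fat LYVE1+ and 14.3 to 45.7 CPM in fat LYVE1- libraries. These ranges overlapped, none of the 10 was called in any comparison, and each had counts in every group. Lymphatic endothelium, the other known carrier of LYVE-1, has 6 markers in the lists, of which 5 were tested. All 6 summed to 18.1 to 57.6 CPM in aortic LYVE1+ and 9.53 to 18.5 CPM in aortic LYVE1- libraries, and to 3.23 to 15.9 CPM in fat LYVE1+ and 1.67 to 7.55 CPM in fat LYVE1- libraries. Of the 5 tested, 4 had a positive log2 fold change in each tissue (median 3.18 in the aorta and 5.22 in fat), Prox1 was called higher in fat LYVE1+ cells, and Flt4, Mmrn1 and Reln had no count in fat LYVE1- cells. The part of lymphatic endothelial transcripts in the LYVE1 contrast was not tested.

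Icam1 (chr9:21015985-21028817, plus strand) was lower in LYVE1+ cells of fat. Its levels there were 426, 258.5 and 264 CPM in LYVE1+ libraries, against 926, 591 and 573 CPM in LYVE1- libraries, so that the groups did not overlap although library 1 was the highest of both. The difference was 2.20-fold (95% interval 1.56 to 3.12, log2 fold change -1.14, SE 0.23, adjusted p = 0.015). Between fat libraries of the same number the log2 ratio of LYVE1+ to LYVE1- was -1.12, -1.19 and -1.12. The call ended without fat LYVE1+ library 2 or library 3 (adjusted p = 0.083 in each case) and when the fat libraries were tested alone (adjusted p = 0.11). It held without both fat libraries numbered 1, with a log2 fold change of -1.15 (adjusted p = 0.00049). Aortic LYVE1+ libraries had 297.5, 301 and 389 CPM of Icam1, against 425, 459.8 and 404 CPM in aortic LYVE1- libraries. The aortic sorts did not overlap, but their gap was small beside the spread between libraries and the difference was not called (log2 fold change -0.38, 95% interval -0.88 to 0.11, adjusted p = 0.56).

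Vcam1 and Icam1 are both textbook targets of the transcription factor NF-kB, and the start of Icam1 is shown because it holds a match to a kB element. RefSeq promoters (GRCm38.p6) were given for 7 of the 10 genes, all but Vcam1, Itgal and Itga6. The 250 bases before the RefSeq start were searched on both strands for GGGNTTNCC, which 3.99% of 32851 promoters hold, and for GGAAATTCC, which 0.286% hold. Among the 7 genes, Icam1 alone had a match, to GGAAATTCC, beginning 153 bases before the start. The stretch is chr9:21015690-21015939 on the plus strand, printed from its 5′ end with the match in capitals.
Icam1: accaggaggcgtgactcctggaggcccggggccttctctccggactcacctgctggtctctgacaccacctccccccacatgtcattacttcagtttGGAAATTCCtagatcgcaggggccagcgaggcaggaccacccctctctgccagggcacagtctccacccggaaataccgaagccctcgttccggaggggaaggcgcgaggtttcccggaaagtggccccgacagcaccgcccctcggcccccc
A match describes these letters only and is not evidence of binding in these cells. Promoters of Itgam, Itgax, Itga4, Itga9, Itgav and Itgb7 had no match in this window. For Itga9 the stretch searched, chr9:118711442-118711691, lies inside the gene (chr9:118606690-118901003, plus strand), so its 5′ end was not searched.

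**Figure D1:**
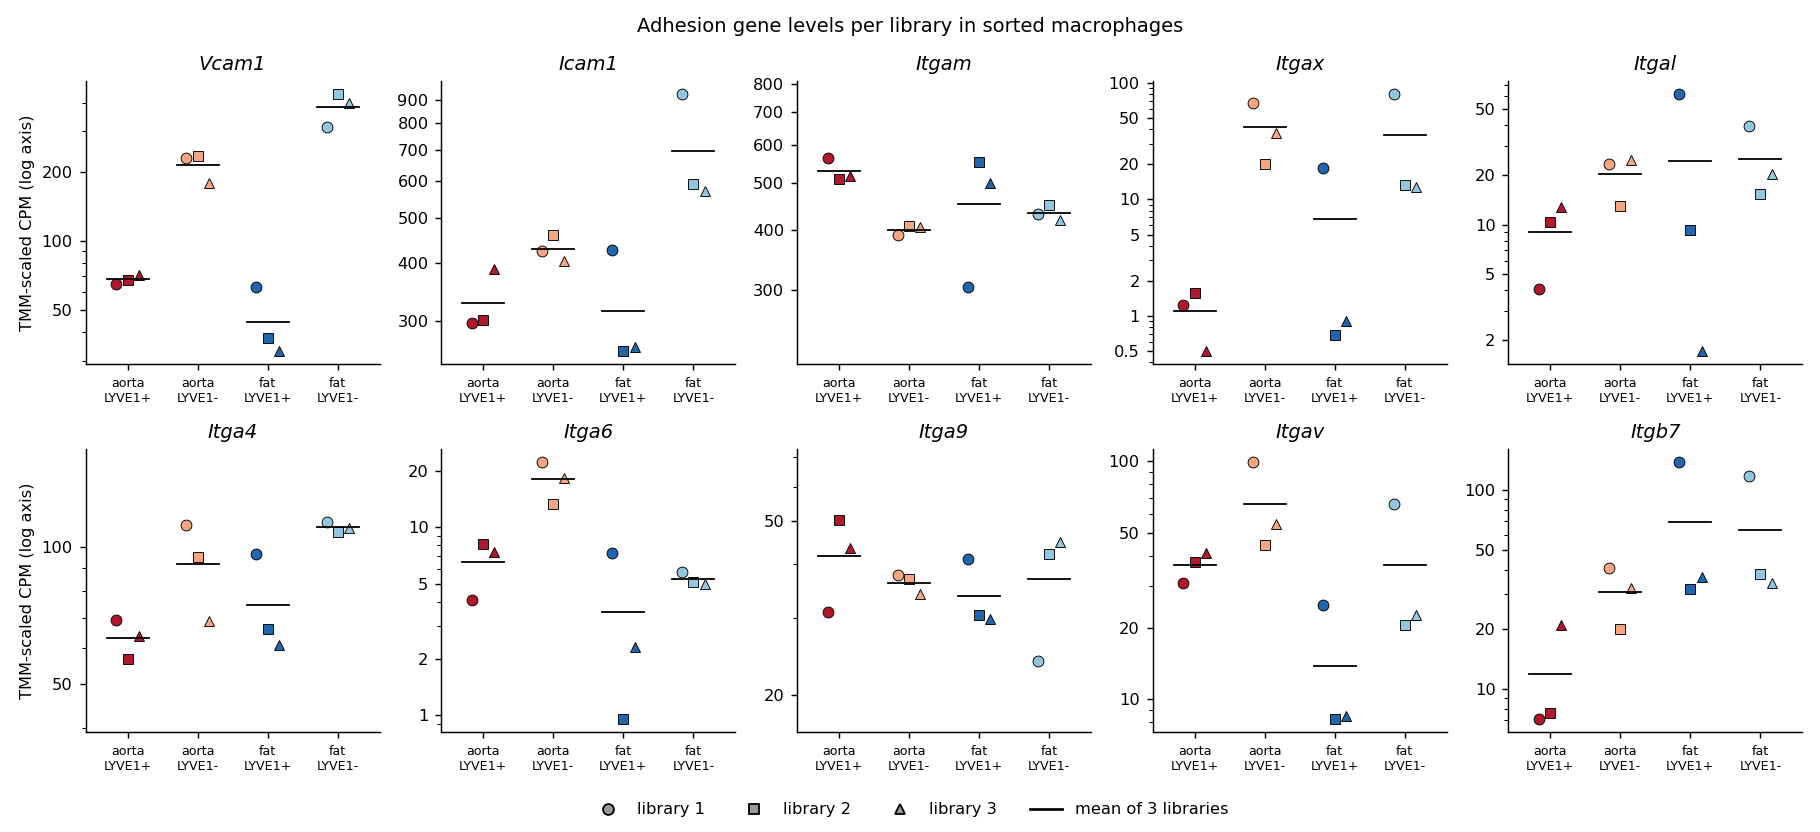
Levels of the 10 adhesion genes in each of the 12 libraries, in TMM-scaled CPM on a log axis that differs between panels; marker shapes give the library number and lines the mean of 3 libraries. Vcam1 lies between 33.0 and 70.9 CPM in all LYVE1+ libraries and between 178 and 436 CPM in all LYVE1- libraries, and circles, the fat libraries numbered 1, top both fat groups for Icam1, Itgax, Itgal, Itga4, Itga6, Itgav and Itgb7.

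The integrins that bind ICAM-1 differed in how evenly their alpha chains were spread. Itgam (chr7:128062640-128118491), the gate gene, was abundant in every library, with 562, 509 and 516 CPM in aortic LYVE1+ cells, against 390.0, 407 and 405 CPM in aortic LYVE1- cells. The aortic sorts did not overlap, and the difference was not called (log2 fold change 0.40, SE 0.18, adjusted p = 0.44). In fat the LYVE1+ libraries had 305, 551 and 499 CPM of Itgam, against 432, 450.3 and 419 CPM in LYVE1- libraries. Those groups overlapped, and the log2 fold change was 0.06 (95% interval -0.34 to 0.46, adjusted p = 0.92).

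Itgax (chr7:128129547-128150657), which codes for CD11c and starts 11.1 kb beyond Itgam, had the widest range of the 10. It had 1.25, 1.58 and 0.498 CPM in aortic LYVE1+ libraries, from 25, 21 and 7 counts, against 66.9, 20.1 and 37.0 CPM in aortic LYVE1- libraries. The lowest LYVE1- library was above the highest LYVE1+ library by more than the whole range of the LYVE1+ libraries. The fitted log2 fold change was -5.20 (95% interval -7.75 to -2.65) and was not called (adjusted p = 0.083). It was called when the aortic libraries were tested alone (adjusted p = 0.0015), by DESeq2 (0.0014) and with no filter on low counts (1.3e-06). All 12 libraries share an estimate of the spread, and it was also called without fat LYVE1+ library 1 (0.0051), without fat LYVE1- library 1 (0.038) and without both (5.6e-05). With the prefix in the model it was -6.35 and not called (adjusted p = 0.72). Nor was it called without any 1 aortic library (0.10 to 0.33) or without library 2 or 3 of either fat sort (0.058 to 0.099).

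Fat libraries had 18.6, 0.693 and 0.907 CPM of Itgax in LYVE1+ cells, against 80.2, 13.4 and 12.8 CPM in LYVE1- cells. Library 1 was more than 5 times above the others in each sort, and its LYVE1+ value exceeded the LYVE1- values of libraries 2 and 3. The log2 fold change in fat was -2.55 (95% interval -4.82 to -0.28, adjusted p = 0.25). The labels do not say that equal numbers pair the libraries, so a block by number is an alternative only. Between fat libraries of the same number the log2 ratios were -2.11, -4.27 and -3.82, and with the replicate number as a block the difference was called (log2 fold change -3.11, adjusted p = 0.0058). Without fat LYVE1+ library 1 it was -5.45 (adjusted p = 0.0060), and without both libraries numbered 1 it was -4.03 (adjusted p = 0.0016). Without fat LYVE1- library 1 it was -1.11 and not called (adjusted p = 0.69). Nor was it called without fat LYVE1+ library 2 (0.53) or 3 (0.55), without fat LYVE1- library 2 (0.21) or 3 (0.23), or in fat alone (0.45). CD11c is also a marker of dendritic cells. The 10 dendritic markers, Itgax not among them, summed to 326 to 350 CPM in aortic LYVE1+, 428 to 540 CPM in aortic LYVE1-, 442 to 594 CPM in fat LYVE1+ and 279 to 580 CPM in fat LYVE1- libraries. In the aorta 9 of the 10 were negative (median -1.93), and Clec9a of conventional dendritic cells, with no count in LYVE1+ cells, was called lower. In fat 6 were negative (median -0.29), and Cd209a and Siglech were called higher in LYVE1+ cells. The part of dendritic cells in the level of Itgax was not tested.

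Itgal (chr7:127296260-127335138), the LFA-1 alpha chain of lymphocytes and monocytes, had low and uneven levels. Aortic LYVE1+ libraries had 4.06, 10.4 and 12.7 CPM, against 23.3, 12.9 and 24.7 CPM in aortic LYVE1- libraries. In fat it had 61.6, 9.27 and 1.71 CPM in LYVE1+ libraries, against 39.2, 15.2 and 20.1 CPM in LYVE1- libraries. The aortic sorts were just apart and the fat sorts overlapped. Library 1, with the most T and NK cell and monocyte transcripts of each fat sort, was highest in both fat sorts. Whether these cells or RNA quality have a part in the level of Itgal was not tested. The log2 fold change was -1.17 in the aorta (SE 0.85, adjusted p = 0.65) and -0.07 in fat (SE 0.84, adjusted p = 0.98). Itgb2, the beta chain that Itgam, Itgax and Itgal share, averaged 637 ± 69.4 CPM in aortic LYVE1+ and 589.7 ± 49.7 CPM in aortic LYVE1- cells, and 574 ± 28.3 CPM in fat LYVE1+ and 628 ± 69.1 CPM in fat LYVE1- cells (SD, n = 3 each). It was not called in any comparison, and its log2 fold change was 0.11 in the aorta (95% interval -0.20 to 0.42) and -0.13 in fat (95% interval -0.44 to 0.18).

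Of the chains that bind VCAM-1, Itga4 (chr2:79255426-79333123) had 69.3, 56.8 and 63.7 CPM in aortic LYVE1+ libraries, against 112, 95.2 and 68.7 CPM in aortic LYVE1- libraries, where library 3 was level with the LYVE1+ libraries. Fat LYVE1+ libraries had 96.7, 66.2 and 61.0 CPM, against 113, 108 and 110.0 CPM in fat LYVE1- libraries, without overlap. The log2 fold changes were -0.54 in the aorta (SE 0.20, adjusted p = 0.31) and -0.57 in fat (SE 0.20, adjusted p = 0.16), and neither was called. The fat difference was called without fat LYVE1+ library 1 (log2 fold change -0.79, adjusted p = 0.024) and without both fat libraries numbered 1 (-0.78, adjusted p = 0.039).

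Itga9 (chr9:118606690-118901003) showed no separation of the sorts. It had 30.9, 50.4 and 43.3 CPM in aortic LYVE1+ libraries, against 37.7, 36.8 and 34.0 CPM in aortic LYVE1- libraries. Fat LYVE1+ libraries had 40.9, 30.5 and 29.8 CPM, against 23.9, 42.1 and 44.9 CPM in fat LYVE1- libraries. All 4 groups overlapped, and neither contrast was called: the log2 fold changes were 0.20 in the aorta (95% interval -0.32 to 0.71) and -0.14 in fat (95% interval -0.66 to 0.38).

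Itgb7 (chr15:102215995-102231944, minus strand), whose product joins Itga4 in the receptor for the gut addressin MAdCAM-1, had 7.07, 7.59 and 21.0 CPM in aortic LYVE1+ libraries, against 40.7, 20.0 and 32.2 CPM in aortic LYVE1- libraries. Fat LYVE1+ libraries had 139, 31.8 and 36.5 CPM, against 118, 38.0 and 34.1 CPM in fat LYVE1- libraries. The fat sorts overlapped, with a log2 fold change of 0.11 (SE 0.62, adjusted p = 0.96). The aortic LYVE1+ libraries 1 and 2 lay below all others, and the aortic difference was not called (log2 fold change -1.38, SE 0.64, adjusted p = 0.44). Itgb1, the other partner of Itga4 and the partner of Itga9, averaged 498 ± 35.6 CPM in aortic LYVE1+ and 463.5 ± 5.50 CPM in aortic LYVE1- cells, and 429.7 ± 76.5 CPM in fat LYVE1+ and 378 ± 108 CPM in fat LYVE1- cells (SD, n = 3 each), with no call in any comparison.

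Itga6 (chr2:71745616-71858416), the laminin receptor chain, had 4.11, 8.12 and 7.40 CPM in aortic LYVE1+ libraries, against 22.3, 13.3 and 18.3 CPM in aortic LYVE1- libraries, the highest of the 4 groups. Fat LYVE1+ libraries had 7.29, 0.953 and 2.32 CPM, against 5.76, 5.10 and 4.98 CPM in fat LYVE1- libraries. The aortic sorts did not overlap and the fat sorts did. The log2 fold changes were -1.46 in the aorta (95% interval -2.59 to -0.33, adjusted p = 0.30) and -0.66 in fat (95% interval -1.86 to 0.53, adjusted p = 0.64). The fat difference was called without fat LYVE1+ library 1 (log2 fold change -1.69, adjusted p = 0.040), the library with 38 counts against 11 and 23 in the others of its group.

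Itgav (chr2:83724397-83806916) had 30.8, 37.9 and 41.2 CPM in aortic LYVE1+ libraries, against 99.5, 44.5 and 54.5 CPM in aortic LYVE1- libraries. In fat it had 24.8, 8.23 and 8.47 CPM in LYVE1+ libraries, against 66.4, 20.5 and 22.6 CPM in LYVE1- libraries. Library 1 was about 3 times above the others in both fat sorts, and the groups overlapped through it. Yet the log2 ratios between fat libraries of the same number were close together at -1.42, -1.32 and -1.42. The log2 fold change in fat was -1.44 (95% interval -2.55 to -0.34, adjusted p = 0.17), and with the replicate number as a block it was -1.39 and called (adjusted p = 0.014). Without fat LYVE1+ library 1 it was -2.11 (adjusted p = 0.022), and without both fat libraries numbered 1 it was -1.37 (adjusted p = 0.029). It was also called by DESeq2 (0.048) and with no filter on low counts (0.0042). Without fat LYVE1- library 1 it was -0.70 and not called (adjusted p = 0.54). Nor was it called without fat LYVE1+ library 2 or 3 (0.46 each), without fat LYVE1- library 2 (0.11) or 3 (0.15), or in fat alone (0.33). In the aorta it was -0.85 (SE 0.48, adjusted p = 0.54).

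Across the 10 genes, the LYVE1+ sort differed from the LYVE1- sort by lower Vcam1 in the aorta, and by lower Vcam1 and Icam1 in fat. In the aorta 1 of the 10 was called lower, against 0.429% of all tested genes, and in fat 2 of the 10 were called lower, against 2.10% of all tested genes. None was called higher in either tissue. Since the 10 genes were chosen with earlier results of these data known, shares and medians set beside all tested genes describe the set and do not test it. With the replicate number as a block, a pairing that the labels do not state, 4 were called in fat, all lower: Vcam1, Icam1, Itgax and Itgav. Under that setting 6.44% of all tested genes were called. The median log2 fold change over the 10 was -1.01 in the aorta and -0.62 in fat, against -0.01 and 0.00 over all tested genes. LYVE1+ libraries lay wholly below LYVE1- libraries for 6 of the 10 in the aorta, a pattern that 11.3% of tested genes showed, and for 3 in fat, which 9.83% showed. In the aorta these were Vcam1, Icam1, Itgax, Itgal, Itga6 and Itgav, and in fat Vcam1, Icam1 and Itga4. Itgam alone lay wholly above in the aorta, as did 11.1% of tested genes. In the aorta the library prefix runs partly with the sort. With the prefix in the model none of the 10 was called there, against 0.0141% of all tested genes. The log2 fold changes of the 6 genes that lay wholly below were then -1.60 (Vcam1), -0.14 (Icam1), -6.35 (Itgax), -0.67 (Itgal), -1.28 (Itga6) and -0.68 (Itgav). Without both fat libraries numbered 1, 4 genes were called in the aorta (Vcam1, Itgax and Itga6 lower, Itgam higher) and 5 in fat (Vcam1, Icam1, Itgax, Itga4 and Itgav, all lower). Of all tested genes, 3.83% were then called in the aorta and 6.01% in fat. Without fat LYVE1+ library 1 alone 6 were called in fat, these 5 and Itga6, against 6.90% of all tested genes.

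**Figure D2:**
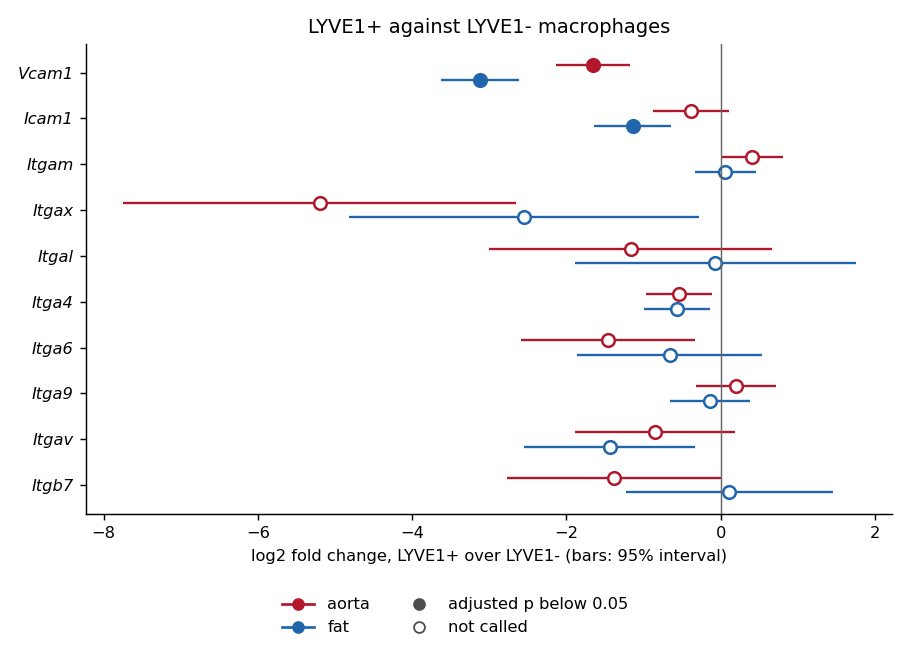
Log2 fold change of LYVE1+ over LYVE1- cells for each adhesion gene, in aorta above and fat below on each line; bars are 95% intervals from the fit across all 14216 genes and filled points have an adjusted p below 0.05. Vcam1 is filled in both tissues, at -1.66 and -3.12, Icam1 in fat at -1.14, and the interval of Itgax is the widest.

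The difference between tissues in the LYVE1 contrast was tested with an interaction term, the aortic minus the fat log2 fold change. For Vcam1 it was 1.46 (95% interval 0.79 to 2.13), so the contrast was smaller in size in the aorta, but it was not called (adjusted p = 0.14). For Icam1 it was 0.76 (95% interval 0.05 to 1.46, adjusted p = 0.81). No adhesion gene was called, against 0.155% of all tested genes. At an unadjusted p under 0.05 there were 2, Vcam1 and Icam1, against 6.06% of all tested genes, and DESeq2 called 1, Vcam1 (adjusted p = 0.0019), and 0.823% of all genes to which it gave an adjusted p. Vcam1 was also called by edgeR without fat LYVE1+ library 1 (interaction 1.78, adjusted p = 0.015), without both fat libraries numbered 1 (1.91, adjusted p = 0.0037) and with no filter on low counts (1.47, adjusted p = 0.0047). Over all tested genes 0.316%, 0.569% and 0.284% were called under these settings, in the same order. The other 8 genes had intervals that included 0.

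Between tissues, no adhesion gene passed the test in either sort. In LYVE1+ cells 0 of 10 were called against 3.00% of all tested genes, 3 had an unadjusted p under 0.05 against 15.3%, and DESeq2 called 1, Itgb7, and 6.51% of all genes. In LYVE1- cells 0 of 10 were called against 2.48% of all tested genes, 3 had an unadjusted p under 0.05 against 15.2%, and DESeq2 called Icam1, Itga6 and Vcam1, and 5.98% of all genes. Aortic and fat libraries did not overlap for 3 genes in LYVE1+ cells, where 20.6% of tested genes did not, and for 4 in LYVE1- cells, where 21.1% did not. In LYVE1+ cells these were Vcam1, Itgav and Itgb7, and in LYVE1- cells Vcam1, Icam1, Itgam and Itga6.

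By mean level of Vcam1 the groups stood, lowest first, in the order fat LYVE1+ cells (44.4 ± 16.0 CPM), aortic LYVE1+ cells (67.9 ± 2.95 CPM), aortic LYVE1- cells (214.5 ± 31.5 CPM) and fat LYVE1- cells (383 ± 63.2 CPM; SD, n = 3 each). The tissue difference of Vcam1 had opposite signs in the sorts, with aortic over fat log2 fold changes of 0.62 in LYVE1+ cells (95% interval 0.14 to 1.10, adjusted p = 0.18) and -0.84 in LYVE1- cells (95% interval -1.31 to -0.37, adjusted p = 0.066). Of the 3 steps in that order, the one between aortic LYVE1+ and aortic LYVE1- cells was called, and the steps at either end were not. Itgb7 had the largest tissue difference in LYVE1+ cells, with 7.07 to 21.0 CPM in aorta against 31.8 to 139 CPM in fat (log2 fold change -2.53, SE 0.66, adjusted p = 0.063). Without fat LYVE1+ library 1, the highest of its group, that difference was -1.53 and not called (adjusted p = 0.17). Without fat LYVE1- library 1, which is outside this contrast but shares the estimate of the spread, it was called (adjusted p = 0.029). Without both fat libraries numbered 1 it was -1.53 and called (adjusted p = 0.043). Itga6 in LYVE1- cells had 13.3 to 22.3 CPM in aorta against 4.98 to 5.76 CPM in fat (log2 fold change 1.77, 95% interval 0.61 to 2.92, adjusted p = 0.11). It was called when those 2 groups were tested alone (adjusted p = 0.020) and without fat LYVE1+ library 1 (adjusted p = 0.018). Itgav in LYVE1+ cells had 30.8 to 41.2 CPM in aorta against 8.23 to 24.8 CPM in fat (log2 fold change 1.45, 95% interval 0.35 to 2.56, adjusted p = 0.17), and without fat LYVE1+ library 1 it was 2.13 and called (adjusted p = 0.036). Without both fat libraries numbered 1, 4 genes were called in each sort, against 6.03% of all tested genes in LYVE1+ and 6.93% in LYVE1- cells. In LYVE1+ cells these were Vcam1, Itga6 and Itgav, higher in aorta, and Itgb7, lower in aorta. In LYVE1- cells they were Itga6, Itgav and Itgax, higher in aorta, and Vcam1, lower in aorta. All libraries from fat carry the RMM prefix and all aortic LYVE1- libraries the RHH prefix, so in LYVE1- cells prefix and tissue cannot be told apart.

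**Figure D3:**
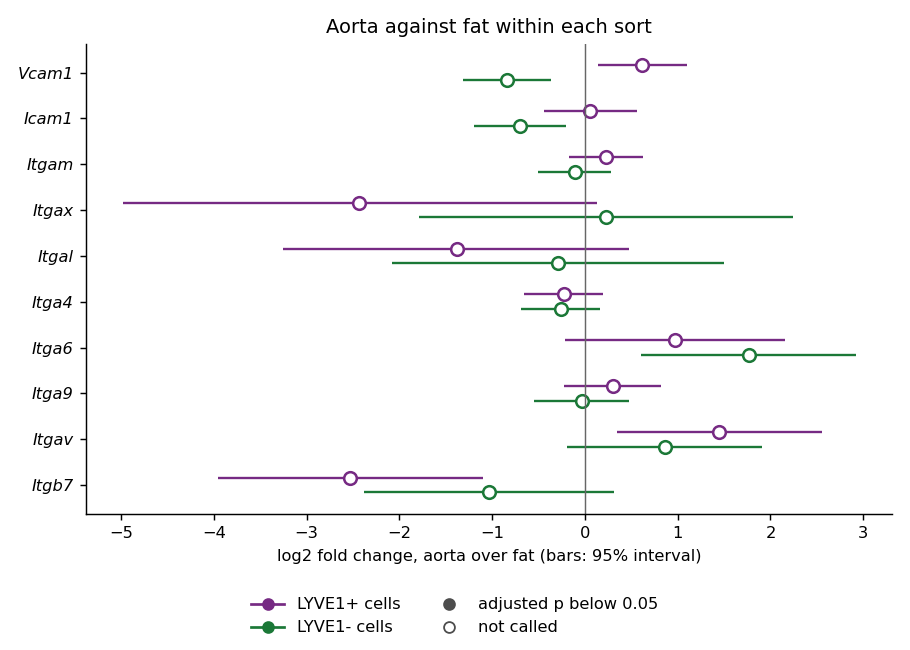
Log2 fold change of aorta over fat for each adhesion gene, in LYVE1+ cells above and LYVE1- cells below on each line, with 95% intervals. No point is filled, since none had an adjusted p below 0.05; Vcam1 lies at 0.62 in LYVE1+ and -0.84 in LYVE1- cells, and Itgb7 at -2.53 in LYVE1+ cells.

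Per length, the integrin chains of these macrophages were dominated by Itgb2, Itgb1 and Itgam. On the scale of CPM per kilobase of exon, Itgb2 averaged 188 to 209 over the 4 groups, Itgb1 92.6 to 122 and Itgam 79.7 to 105. The other alpha chains among the 10 were far below Itgam in each group. Itga4 averaged 4.53 to 7.90, Itga9 4.39 to 5.40, Itgav 1.29 to 6.16, Itgax 0.231 to 8.61, Itgal 1.38 to 3.78 and Itga6 0.390 to 1.99. Itgb7 averaged 4.29 ± 2.85 in aortic LYVE1+ and 11.2 ± 3.76 in aortic LYVE1- cells, and 25.0 ± 21.9 in fat LYVE1+ and 22.9 ± 17.2 in fat LYVE1- cells (SD, n = 3 each). The ligands on the same scale averaged 72.6 to 160.0 for Icam1 and 5.01 to 43.2 for Vcam1, so Icam1 was above Vcam1 in each group.

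**Figure D4:**
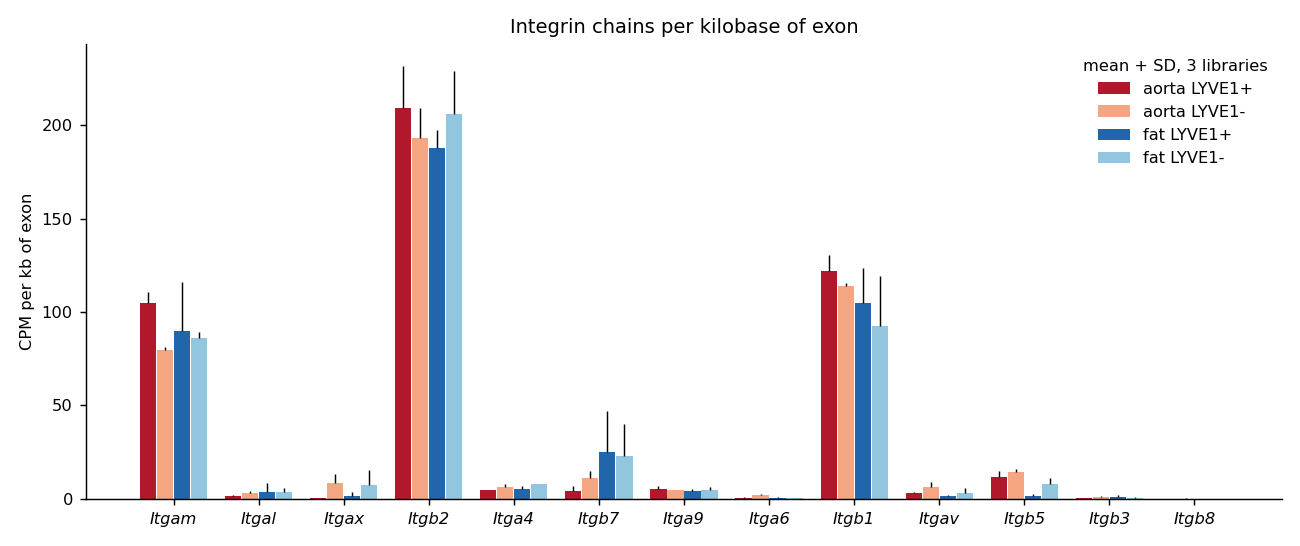
Mean level of the integrin chains in CPM per kilobase of exon, with the SD of 3 libraries drawn upward, in the 4 groups. Itgb2, Itgb1 and Itgam have the highest bars in every group, and the bars of Itgb7 and Itgax have errors about as large as their means in fat.

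The other beta chains of Itgav differed in level, and Itgb5, which forms a vitronectin receptor with it, moved with the groups. Itgb5 had 4.99, 4.51 and 9.58 CPM in fat LYVE1+ libraries, against 36.2, 34.9 and 15.7 CPM in fat LYVE1- libraries, a difference of 4.50-fold (95% interval 2.61 to 7.76, log2 fold change -2.17, adjusted p = 0.0052). Aortic LYVE1+ libraries, with 43.7, 28.2 and 50.7 CPM, were 6.36-fold above fat LYVE1+ libraries (log2 fold change 2.67, SE 0.37, adjusted p = 0.0023). In the aorta LYVE1+ cells averaged 40.9 ± 11.5 CPM and LYVE1- cells 50.4 ± 6.35 CPM (SD, n = 3 each), with a log2 fold change of -0.30 (adjusted p = 0.78). The interaction for Itgb5 was 1.87 (95% interval 0.82 to 2.92, adjusted p = 0.30). Both calls of Itgb5 held when any library was left out, and the fat call ended when the fat libraries were tested alone (adjusted p = 0.051). Itgb3 averaged 1.36 to 4.82 CPM over the groups and Itgb8 0.0167 to 1.53 CPM, and neither was called.

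Other genes of the adhesion pathway were counted from 6 lists, with adjustment over all tested genes, of which 0.542% were called in the aortic and 3.93% in the fat LYVE1 contrast, and between tissues 3.00% in LYVE1+ and 2.48% in LYVE1- cells. No list had a call in the aortic LYVE1 contrast or in the interaction. The median log2 fold changes in fat were -0.40 for other integrin chains, -0.41 for ligands of immunoglobulin and junctional type, -0.12 for integrin activation, -0.15 for selectins and their ligands, -0.57 for matrix ligands and -0.70 for TGF-beta latency, against 0.00 over all tested genes. Of 18 other integrin chains 12 were tested: 2 were called lower in fat LYVE1+ cells (Itgb5 and Itga1), 2 higher in aortic LYVE1+ cells (again Itgb5 and Itga1) and 1 higher in aortic LYVE1- cells (Itga8). Itga1, a collagen receptor chain, had no count in the 3 fat LYVE1+ libraries, which against a floor of 3 counts over the group makes it at least 19.3-fold lower than in fat LYVE1- cells (61 counts, adjusted p = 0.018) and at least 11.1-fold higher in aortic LYVE1+ cells (59 counts, adjusted p = 0.039). Its fat call ended without fat LYVE1+ library 2 (adjusted p = 0.076) or 3 (0.071), and its tissue call without any LYVE1+ library, aortic LYVE1- library 1 or 2 or fat LYVE1- library 2 (0.059 to 0.12) and with the prefix in the model (0.066). Itga8, a chain for matrix ligands such as nephronectin, averaged 9.40 ± 1.34 CPM in aortic LYVE1- and 0.521 ± 0.601 CPM in fat LYVE1- cells (adjusted p = 0.0497), and lost the call without any aortic LYVE1+ library or any LYVE1- library of either tissue (adjusted p = 0.057 to 0.14), with the replicate block (0.066), with the size factors of DESeq2 (0.051) and with the prefix in the model (0.85). None of 10 tested immunoglobulin-type and junctional ligands was called, among them Cd47, a widespread partner of integrins, with 271 ± 16.5 CPM in aortic LYVE1+ and 257 ± 24.9 CPM in aortic LYVE1- cells. Alcam, a ligand of the T cell receptor CD6, averaged 16.5 ± 18.8 CPM in fat LYVE1+ and 79.1 ± 48.9 CPM in fat LYVE1- cells (adjusted p = 0.10).

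Genes that switch integrins on and tie them to actin had few calls: among 33 tested, 1 was called higher and 1 lower in fat LYVE1+ cells, and 1 lower in aortic than in fat LYVE1+ cells. Rasgrp3, an activator of the small GTPase Rap, averaged 79.5 ± 4.40 CPM in fat LYVE1+ and 34.7 ± 7.20 CPM in fat LYVE1- cells (log2 fold change 1.20, adjusted p = 0.033). That call ended without fat LYVE1+ library 2 (adjusted p = 0.12) or 3 (0.094), without fat LYVE1- library 1 (0.12) or 3 (0.11), and without both libraries numbered 1 (0.092). Flna, the actin crosslinker that binds beta chains, averaged 557 ± 85.5 CPM in fat LYVE1+ and 920.0 ± 36.0 CPM in fat LYVE1- cells (log2 fold change -0.72, adjusted p = 0.036), and lost the call without any of 8 libraries: aortic LYVE1+ 1 or 3, aortic LYVE1- 3, fat LYVE1+ 2 or 3, or any fat LYVE1- library (adjusted p = 0.052 to 0.18). It also lost the call in fat alone (0.12) and with the prefix in the model (0.055). Rasgrp2, another Rap activator, was lower in aortic than in fat LYVE1+ cells (20.4 ± 4.02 against 44.6 ± 12.1 CPM, adjusted p = 0.039), a call that ended without any LYVE1+ library, aortic LYVE1- 1 or 2 or fat LYVE1- 2 (adjusted p = 0.052 to 0.14), with the LYVE1+ groups alone (0.057) and with the prefix in the model (0.061). Of 8 selectins, selectin ligands and related receptors, Cd44, the hyaluronan receptor, was lower in fat LYVE1+ cells at 138 ± 56.6 CPM, against 502 ± 213 CPM in fat LYVE1- cells (log2 fold change -1.86, adjusted p = 0.0091). It was not called without fat LYVE1+ library 2 (adjusted p = 0.056) or 3 (0.054), or in fat alone (0.055).

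Among 23 tested matrix and soluble ligands of integrins, 3 were called in the LYVE1 contrast of fat. Ccn1, a matricellular ligand of Itgav and Itgam integrins, was higher in fat LYVE1+ cells, with 111 ± 45.7 CPM against 20.4 ± 6.15 CPM in fat LYVE1- cells (5.46-fold, log2 fold change 2.45, adjusted p = 0.0029). Adam15, a surface protease with an integrin-binding domain, was higher too, with 785 ± 79.2 CPM against 482 ± 65.3 CPM (log2 fold change 0.70, adjusted p = 0.018). Spp1, which codes for osteopontin, a ligand of Itgav, Itga4 and Itga9 integrins, was lower, with 1.36 ± 0.95 CPM in LYVE1+ cells against 13.5 ± 10.8 CPM in LYVE1- cells (log2 fold change -3.38, adjusted p = 0.022). The Adam15 call ended without fat LYVE1+ library 2 (adjusted p = 0.099) or 3 (0.10), without fat LYVE1- library 1 (0.055) or 3 (0.089), or in fat alone (0.12). The Spp1 call ended without fat LYVE1+ library 2 (adjusted p = 0.095) or 3 (0.099), without fat LYVE1- library 1 (0.075), or in fat alone (0.087).

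Between tissues, 4 of these 23 ligands were called higher and 1 lower in aortic than in fat LYVE1+ cells. Edil3, an Itgav ligand of the vessel wall, had 233 counts in aortic LYVE1+ cells and none in fat LYVE1+ cells, at least 43.8-fold higher (adjusted p = 0.0031). Mfge8, a bridge from Itgav integrins to dying cells, averaged 59.4 ± 0.991 CPM in aortic and 21.5 ± 2.61 CPM in fat LYVE1+ cells (log2 fold change 1.47, adjusted p = 0.010), a call that ended without fat LYVE1+ library 2 (0.057). Ccn2 averaged 14.5 ± 2.94 CPM in aortic and 0.911 ± 0.0467 CPM in fat LYVE1+ cells (log2 fold change 3.99, adjusted p = 0.022), a call that ended without aortic LYVE1+ library 3 (0.067) or fat LYVE1+ library 2 (0.089) or 3 (0.083), or with the prefix in the model (0.061). The remaining calls, Ccn1 higher and Vtn lower, lay outside the naming rule and are named after their values were seen. In LYVE1- cells 3 were called, all higher in aorta: Ccn1 (225 ± 64.1 against 20.4 ± 6.15 CPM, adjusted p = 0.00077), Edil3 (335 counts against 2, adjusted p = 0.0055) and Ccn2 (23.9 ± 4.17 against 1.72 ± 2.32 CPM, adjusted p = 0.021). Ccn2 lost this call without any aortic LYVE1- library (adjusted p = 0.058 to 0.073) or without fat LYVE1- library 3 (0.11), and with the LYVE1- groups alone (0.055). In LYVE1- cells all 3 calls ended with the prefix in the model (adjusted p = 0.37 to 0.75). The 9 genes of TGF-beta latency and activation, a process that Itgav integrins take part in, had a median log2 fold change of aorta over fat of 1.38 in LYVE1+ and 1.74 in LYVE1- cells, against -0.02 and -0.00 over all tested genes. Of these 9, Ltbp2, a matrix binding protein, was called higher in aortic LYVE1+ cells (235 counts against 1 in fat LYVE1+ cells, adjusted p = 0.024), a call that ended without aortic LYVE1+ library 2 (0.079) or fat LYVE1+ library 2 (0.089) or 3 (0.099).

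These tissue differences lay beside smooth muscle transcripts. The 8 smooth muscle markers summed to 56.0 to 99.0 CPM in aortic LYVE1+ and 14.9 to 36.3 CPM in fat LYVE1+ libraries, and to 53.8 to 122 CPM in aortic LYVE1- and 11.4 to 20.8 CPM in fat LYVE1- libraries. In LYVE1+ cells 2 of the 8 were called higher in aorta, and in LYVE1- cells 5 were. Cnn1 had no count in fat LYVE1+ cells. The 8 fibroblast markers summed to 861 to 2470 CPM in aortic LYVE1+ and 441 to 672 CPM in fat LYVE1+ libraries, and to 1300 to 2310 CPM in aortic LYVE1- and 547 to 1030 CPM in fat LYVE1- libraries, with Col1a1 and Col1a2 called higher in aorta in both sorts. Their part in the levels of Itgb5, Itga1, Itga8, Ccn1, Ccn2, Edil3, Mfge8 and Ltbp2 was not tested.

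Likeness was measured over the 12 libraries as Pearson's r of log2 CPM against genes whose log2 CPM averaged 4 or more, as a description only, since the points share libraries, depth and groups. Of 7116 genes, Fcgr4, an activating Fc receptor, was most like Vcam1 (r = 0.979), followed by Cd93 (0.974) and Npm1 (0.958). Icam1 was most like Cks2 (0.968), Rpl15 (0.943) and Rpl3 (0.935), and Itgam most like Sumf1 (0.957), Vps29 (0.895) and Decr1 (0.892). For Itgax these were Gpr132 (0.974), Lyz1 (0.957) and Map3k14 (0.954), and for Itgal Dusp2 (0.906), Bin2 (0.906) and Sugp2 (0.905). Itga4 lay nearest to Ms4a4c (0.948), Il27ra (0.919) and Ear2 (0.917), and Itga6 nearest to Cd274 (0.951). Itgav lay nearest to Dot1l (0.976), Cd9 (0.971) and Srebf2 (0.964), and Itgb7 nearest to Tob2 (0.943), Gm12940 (0.943) and Srsf5 (0.942). Itga9 had the weakest matches, Golga2 (0.877), Numb (0.836) and Rnf168 (0.805). None of the 10 adhesion genes was among the 3 nearest genes of another.

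Since the libraries keep no strand, exons shared with a gene on the other strand cannot be assigned with certainty. Vcam1 shares 61 bp of exon with Gm43109, counted at 0 to 0.589 CPM, Itga4 shares 1124 bp with Cerkl, at 0.652 to 3.19 CPM, and Itgav shares 634 bp with Gm13684, at 0 to 3.48 CPM. Icam1 shares 511 bp with the antisense gene Gm47079 and Itgam shares 3450 bp on its own strand with Gm49368, and neither of these neighbours is a row of the count table. For Itgav the neighbour reached 3.48 CPM, against 8.23 CPM in the lowest Itgav library.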

How the data were processed

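RNA sequencing libraries of 12 macrophage sorts were analysed from the deposited raw counts per gene. The submitters' processing notes name GRCm38, edgeR 3.14.0, featureCounts 1.5.0 and STAR 2.5.2b; annotation release, strand setting and filters are not given in the sources used here. The deposited log2 CPM values of the authors equalled TMM-scaled log2 CPM with a prior count of 0.25 (largest difference 4.97e-14) and served for that check only.

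The quasi-likelihood test of edgeR 4.0.16 (R 4.3.3) took all 12 libraries, with a mean for each group, TMM scaling and filterByExpr, leaving 14216 genes and 8 residual degrees of freedom. Tests were two-sided, with Benjamini-Hochberg adjustment over all tested genes and a call at an adjusted p under 0.05. The SE is |log2 fold change| / sqrt(F). The script was tested on simulated counts. Counting floors use 3 counts and cover counting error only, since reads carry no molecular identifiers.

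The 10 genes and all lists were chosen with earlier results of these data known. All 10 are named, with the 3 genes most like each (for Itga6 only the nearest is reported here); from each of 6 pathway lists, up to 3 called genes per comparison are named by adjusted p, or the 2 most abundant where a list had no call. Symbols and coordinates come from GENCODE M21, promoters from RefSeq.

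The labels do not say that equal numbers pair the sorts, so the block by number is an alternative only. In fat, deviations of libraries with equal numbers from their group means correlated at 0.486, 0.279 and 0.184, each over 0.1. Unequal numbers 2 and 3 correlated too, at 0.192 and 0.225, so LYVE1+ library 3 did not correlate best with its own number. Both fat libraries numbered 1 stood apart, and deviations from a mean of 3 libraries are tied to each other. These correlations therefore cannot tell a pairing from the shared deviation of libraries 1. In the aorta no correlation of equal numbers was positive. Alternatives were DESeq2 1.42.0, other size factors, no filter, fewer groups, the prefix as a covariate, the block and left-out libraries.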

Additional observations from a re-analysis of the deposited data

How the results depend on the processing

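Of 940 alternative values for the log2 fold changes of single adhesion genes, 847 kept their direction and side of the threshold, 53 became called, 4 lost the call and 36 changed sign, none of the last being called in the result reported. Levels on the plain library size moved by less than 1 SD in 40 of 40 cases, and other scalings moved the median of all genes by less than 0.1. Vcam1 was called in 18 of 19 alternatives in the aorta (adjusted p = 8.3e-11 to 0.31) and in 19 of 19 in fat (4.7e-39 to 0.0069), and Icam1 in fat in 16 of 19 (6.2e-05 to 0.11).

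The number of adhesion genes called moved more. In the LYVE1 contrast of the aorta it was 1 and became 2 with no filter on low counts, 2 with DESeq2, 3 with only the groups compared, 3 with the replicate block, 0 with the prefix in the model, 4 without both fat libraries numbered 1 and 1 to 2 over left-out libraries. Of all genes in each fit 0.542% were called, which became 1.33%, 2.54%, 2.15%, 1.71%, 0.0141%, 3.83% and 0.155% to 1.41%, in the same order. In fat it was 2 and became 4 with no filter, 3 with DESeq2, 1 with only the groups compared, 4 with the replicate block, 5 without both libraries numbered 1 and 1 to 6 over left-out libraries. The share of all genes was 3.93% there and became 3.24%, 7.09%, 1.64%, 6.44%, 6.01% and 1.44% to 6.90%. In the interaction the number of adhesion genes was 0 and became 1 with no filter, with DESeq2 and without both libraries numbered 1, and 0 to 1 over left-out libraries. All genes went from 0.155% to 0.284%, 0.823%, 0.569% and 0% to 0.316%. Between tissues in LYVE1+ cells it was 0 and became 3 with no filter, 1 with DESeq2, 1 with the replicate block, 4 without both libraries numbered 1 and 0 to 3 over left-out libraries. The share of all genes in that contrast went from 3.0% to 3.24%, 6.51%, 2.63%, 6.03% and 1.13% to 3.6%. Between tissues in LYVE1- cells the number of adhesion genes was 0 and became 2 with no filter, 3 with DESeq2, 1 with only the groups compared, 4 without both libraries numbered 1 and 0 to 2 over left-out libraries. All genes went from 2.48% to 2.55%, 5.98%, 2.08%, 6.93% and 0.649% to 3.57%. The cause of these changes was not tested. In the aorta equal numbers correlated at -0.0441, -0.0767 and -0.170 and no library correlated best with its own number, and the block added Itgax and Itgb7 there and Itgav between tissues in LYVE1+ cells, with no other change of call beyond those in fat. Over all genes, 77 calls in the aorta became 2 to 566, 558 in fat 206 to 1025, 22 in the interaction 0 to 103, 426 in LYVE1+ cells 172 to 922 and 353 in LYVE1- cells 7 to 1024.

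Changes of sign were as follows. Without both fat libraries numbered 1, Itgb7 in fat was -0.08, the interaction of Itgal 0.50 and of Itga6 0.18, the LYVE1+ tissue difference of Itgax 0.48 and of Itgal 0.69, and the LYVE1- one of Itgal 0.19. With the prefix in the model, Icam1 in LYVE1+ cells was -0.08. Over left-out libraries, the fat contrast ran from -0.11 to 0.28 for Itgam, -2.15 to 0.47 for Itgal, -0.37 to 0.02 for Itga9 and -0.88 to 0.92 for Itgb7. The interaction ran from -4.09 to 0.25 for Itgax, -1.64 to 0.98 for Itgal, -0.14 to 0.26 for Itga4, -1.27 to 0.24 for Itga6 and -0.15 to 1.27 for Itgav. The tissue difference in LYVE1+ cells ran from -0.08 to 0.33 for Icam1, -3.01 to 0.48 for Itgax and -1.93 to 0.69 for Itgal, and in LYVE1- cells from -0.30 to 1.65 for Itgax, -0.54 to 0.19 for Itgal and -0.27 to 0.13 for Itga9.

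Of 19 named calls from the pathway lists, 6 held whichever library was left out, 13 ended at least once, and none changed sign. Depth limits Itgax, Itga6 and Itgal most, which had as few as 7, 11 and 17 counts in a library.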
